A study of Mus musculus with 21 samples.

Results

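Glomeruli of mice lacking Epac1 in podocytes were compared between day 11 and day 4 of nephrotoxic serum nephritis, with 4 libraries at each stage out of 21 libraries in the series. All 8 animals were female, 3 months old, homozygous for a floxed Epac1 allele (Epac1fl/fl) and had a Cre recombinase active in podocytes, which removes Epac1 from those cells, and are called cKO here. Nephritis was started by injecting decomplemented nephrotoxic serum into a vein on 2 consecutive days, and kidneys were taken at day 11, the established stage, or at day 4, the early stage. Littermates with the same floxed allele and no Cre (called flox) were sampled at day 11 (n = 4) and day 4 (n = 3), and 3 cKO and 3 flox mice received PBS. Because every mouse carried the floxed allele, the flox animals are controls for Cre and not animals with an unmodified Epac1 locus. Glomeruli were cut by laser microdissection from 10 µm frozen sections, and 3′ ends of polyadenylated transcripts were sequenced, so a count reflects the 3′ end of a transcript and each level below is in CPM, reads scaled to a common library size. Of 13898 genes tested, 3481 (25.05%) averaged 50 CPM or more over the 8 libraries, and the description rests on these.

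Nephrotoxic serum contains antibodies against the glomerular filter, and the injury passes from an early phase of antibody deposition to scarring with matrix deposition and crescents. Podocytes are the epithelial cells that cover the filter, hold its slit diaphragms and make part of its basement membrane. Epac1, the product of Rapgef3, binds cyclic AMP and then loads Rap GTPases with GTP, and Rap signalling controls adhesion, the actin cytoskeleton and cell metabolism. The study asked what podocyte Epac1 does as glomerulonephritis progresses.

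The 8 libraries held 4550550 to 17200905 reads at day 11 and 12465774 to 22351049 reads at day 4. Day 11 libraries gave a larger share of reads to the ribosomal RNA gene CT010467.1 (29.0% ± 7.48 against 17.5% ± 2.52 at day 4, SD, n = 4 each) and a smaller share to mitochondrial genes (3.90% ± 0.456 against 7.77% ± 1.88). Haemoglobin genes took 0.131% ± 0.0660 of reads at day 11 and 0.444% ± 0.136 at day 4. For each of these 3 shares the 8 libraries separated completely by stage (exact two-sided permutation p = 0.0286, the smallest that 4 against 4 allows). Total reads (exact permutation p = 0.143) and detected genes (11222 ± 497 against 9862 ± 1847, exact permutation p = 0.229) overlapped. Replicate 3 of day 11 had the fewest reads and replicate 3 of day 4 the fewest detected genes, 7871, so the main gene lists are also described without that pair. Counts and medians of a list cover its members at 50 CPM or more, while a summed level covers all its tested members, whose number is given beside it. The 50 CPM rule is a mean over both stages, so a gene can pass through the stage where it is high alone. Such genes are included in the counts and medians, in either direction. Among genes named below, those that passed through day 11 alone include Tnc, Ppp2r2a, Plin2, Fcf1, Lgals3 and Cdh6. Those that passed through day 4 alone include Tsc22d3, Abhd14b, Calb1, Lmx1b, H2-Q7 and H2-Q6. The rule itself favours a difference between the stages in such genes, so their separation is only described. Over the 3481 genes, the Spearman correlation was 0.617 to 0.647 among day 11 libraries and 0.374 to 0.6502 among day 4 libraries, and 0.357 to 0.691 between the stages. The day 4 libraries differed more among themselves, and some pairs across the stages correlated more closely than pairs within day 4.

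Rapgef3 (GRCm38 chromosome 15, 97744770 to 97767972, minus strand) was detected in every library, at 199.5, 170.3, 139 and 198.7 CPM in day 11 cKO glomeruli and 126, 146, 63.4 and 145 CPM in day 4 cKO glomeruli. The groups overlapped, and the log2 fold change, day 11 over day 4, was 0.56 ± 0.40 (SE) with an adjusted p of 0.806. The level averaged 121 ± 50.2 CPM in cKO mice given PBS (SD, n = 3), and in flox mice it averaged 270.2 ± 60.5 CPM with PBS (n = 3), 191 ± 58.0 CPM at day 4 (n = 3) and 205 ± 100.7 CPM at day 11 (n = 4). Glomerular endothelial cells also make Epac1, and the sources used here do not say whether the sequenced 3′ end lies in the deleted part, so these counts say nothing on the success of the deletion. The level of Rapgef4, the gene of Epac2, averaged 66.3 ± 31.8 CPM at day 11 and 59.2 ± 57.5 CPM at day 4, with 1 day 4 library at 0. Of 12 genes in the list of Epac, Rap and their regulators at this level, 9 were higher and 3 lower at day 11 (median log2 fold change 0.41). None of them separated the stages. Over all genes at this level 2.82% separated them upwards and 3.5% downwards, so this does not set the list apart.

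No gene passed an adjusted p of 0.05 over all 13898 genes in edgeR's quasi-likelihood test, so the background is 0% and the values below are descriptions of levels and differences rather than called changes. An unadjusted p under 0.05 was reached by 1436 genes (10.3%). DESeq2 called 911 genes (6.55%), of which 660 had 0 reads in all libraries of 1 stage and 88 were at 50 CPM or more. Limma voom called 10 genes (0.072%). Cald1 and Spp1 came closest, each with an adjusted p of 0.0504 in edgeR. At 50 CPM or more, 1582 genes were higher and 1899 lower at day 11, and the median log2 fold change was -0.076. All 4 day 11 libraries lay above all 4 day 4 libraries for 98 genes (2.82%) and below them for 122 genes (3.5%), and an unadjusted p under 0.05 marked 3.36% of them as higher and 5.23% as lower.

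**Figure D1:**
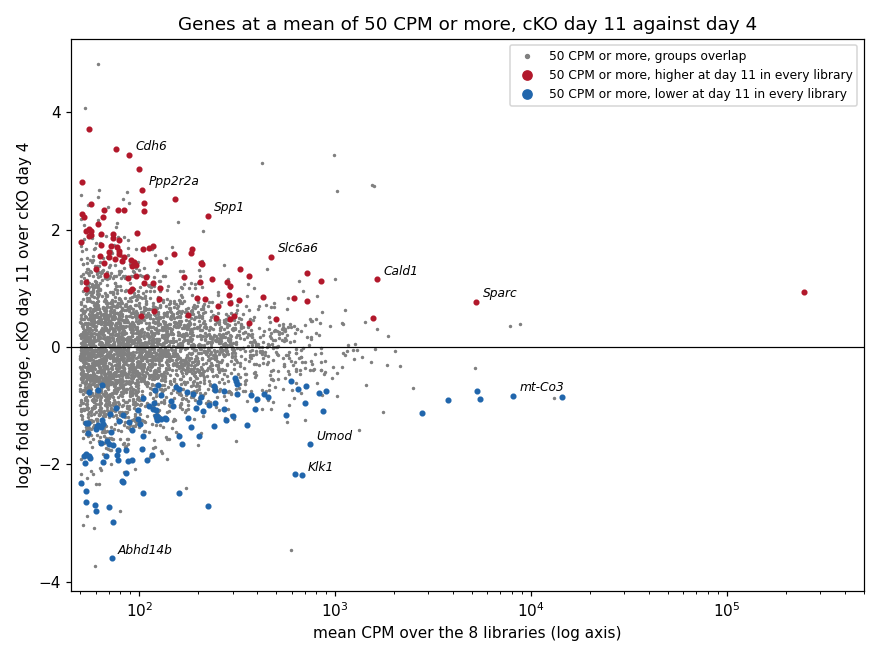
Log2 fold change of cKO day 11 over cKO day 4 (vertical axis) against mean CPM over the 8 libraries (log axis) for the 3481 genes at 50 CPM or more. Red points mark the 98 genes higher in every day 11 library than in any day 4 library and blue points the 122 genes lower in every one, and the spread of the grey points narrows as the level grows.

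Cald1, which encodes caldesmon, an actin and tropomyosin binding protein that restrains contraction, had the smallest p of all tested genes. It measured 2096, 2356, 2491 and 2095 CPM at day 11 and 1009, 799.8, 852 and 1402 CPM at day 4, so the groups did not overlap. The log2 fold change was 1.15 ± 0.21 (95% interval 0.73 to 1.58), and without the pair of replicates 3 it was 1.03 with an adjusted p of 0.422. The adjusted p was 0.0504 with all libraries, 0.0283 without replicate 1 of day 4 and 0.0117 without replicate 4 of day 4. Of 19 alternative settings of tool, scaling, filter, covariate or libraries, 7 put it under 0.05. In cKO mice given PBS Cald1 averaged 1162 ± 259 CPM (SD, n = 3), which lies within the day 4 range. Cald1 occupies GRCm38 chromosome 6, 34598500 to 34775473, plus strand. Of its RefSeq start sites in GRCm38.p6, the downstream one, chosen because its window holds the match, has an AP-1 site, the sequence bound by Fos and Jun, in the 250 bases before it, shown in capitals below to place that site.
Cald1, chr6:34709194-34709443, plus strand: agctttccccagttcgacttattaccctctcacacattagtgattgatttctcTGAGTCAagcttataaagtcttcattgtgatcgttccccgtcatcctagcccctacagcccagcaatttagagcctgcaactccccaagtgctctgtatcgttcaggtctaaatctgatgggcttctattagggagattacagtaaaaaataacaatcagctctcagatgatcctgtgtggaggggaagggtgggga
An AP-1 site was searched as TGAGTCA or TGACTCA, which are reverse complements of each other, and it was present in 4.46% of 32851 RefSeq promoter windows. The 3′ counts do not tell which start site was used. The other Cald1 window held no match.

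The actin, tropomyosin and contractile list had 50 genes at this level, 29 higher and 21 lower at day 11 (median log2 fold change 0.16). Of these, 6 higher and 2 lower had an unadjusted p under 0.05, against 3.36% higher and 5.23% lower of all genes at this level. Without the pair of replicates 3 the split was 28 higher and 22 lower and the median 0.076. Tpm1, an actin-coating tropomyosin, measured 1062, 1257, 739 and 1103 CPM at day 11 and 605, 502, 430.3 and 746 CPM at day 4, and overlapped at the edge because replicate 3 of day 11 lay just below replicate 4 of day 4. Csrp1, a LIM protein of actin bundles, measured 719.9, 962, 1004 and 947 CPM at day 11 and 459.9, 356, 332 and 722 CPM at day 4, with the same kind of edge overlap. Their log2 fold changes were 0.87 ± 0.26 and 0.96 ± 0.24, with adjusted p of 0.465 and 0.387. Rock2, a kinase that raises myosin activity, measured 388, 646, 434 and 403 CPM at day 11 and 172, 143, 202 and 232 CPM at day 4 without overlap, a log2 fold change of 1.32 ± 0.32. Vim, the intermediate filament vimentin, measured 1019.7, 1268, 825 and 933 CPM at day 11 and 694, 273, 56.2 and 671 CPM at day 4, also without overlap. Acta2, smooth muscle actin and a usual mark of activated mesangial cells, overlapped widely at 642 ± 241 CPM at day 11 and 505 ± 239.6 CPM at day 4. Both stages lay above its PBS level of 202 ± 66.4 CPM in cKO mice. Of 44 actin list genes with a RefSeq promoter window, 6 held an AP-1 site and 6 a CArG box, the serum response factor site, against 5.16% and 1.62% of all 27025 genes with a window. An AP-1 site was also held by 5 of 55 respiratory chain genes (9.09%), and a CArG box by 0 of them. The motifs searched and the windows printed were chosen with the results known.

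Spp1, the secreted phosphoprotein osteopontin, had the second smallest p. It measured 295, 531, 214 and 439 CPM at day 11 and 94.0, 96.8, 80.5 and 44.4 CPM at day 4 (GRCm38 chromosome 5, 104435118 to 104441050, plus strand). All day 11 libraries lay above all day 4 libraries, and the day 4 mean of 78.9 ± 24.1 CPM was close to the PBS mean of 71.1 ± 25.5 CPM. The log2 fold change was 2.23 ± 0.42 (95% interval 1.38 to 3.08), and 2.43 without the pair of replicates 3. Its adjusted p was 0.0504 with all libraries, 0.0269 without replicate 1 of day 4 and 0.0267 without replicate 3 of day 11. Only 6 of 19 alternative settings put it under 0.05. Col4a1, a chain of the type IV collagen shared by basement membranes and mesangial matrix (GRCm38 chromosome 8, 11198423 to 11312826, minus strand), measured 982, 1366, 1154 and 1121 CPM at day 11 and 665, 634, 331 and 494 CPM at day 4, without overlap. Its log2 fold change was 1.12 ± 0.24 with an adjusted p of 0.12 (0.0426 without replicate 1 of day 4), and its PBS mean was 342 ± 99.6 CPM. The adjusted p of Col4a1 was under 0.05 in 3 of 19 alternative settings. Sparc, a collagen-binding matricellular protein, measured 5873, 6819, 7247 and 6646 CPM at day 11 and 4276, 4354, 1944 and 5061 CPM at day 4, a log2 fold change of 0.77 ± 0.19. Sparc already averaged more at day 4 than in PBS glomeruli (2475 ± 619.9 CPM), although replicate 3 of day 4 lay at the PBS level.

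Interstitial and matricellular matrix genes were mostly higher at day 11. Of 27 at this level 23 were higher and 4 lower, and their median log2 fold change was 0.54 against -0.076 for all genes at the level. Of the 27, 5 higher and 0 lower separated the stages, against 2.82% higher and 3.5% lower of all genes at the level. Without the pair of replicates 3 the split was 23 higher and 4 lower and the median 0.90. The summed level of the list (44 genes) was 16314, 19343, 16458 and 18269.9 CPM at day 11 and 13388, 12000.1, 8248 and 13818 CPM at day 4, with no overlap, and 9317 to 10201 CPM in cKO PBS libraries. Col1a2, a chain of fibrillar type I collagen, measured 331, 719, 267 and 641 CPM at day 11 and 217, 276, 236 and 203.6 CPM at day 4, with replicate 3 of day 11 inside the day 4 range. Tnc, the injury-associated glycoprotein tenascin C, measured 80.9, 147, 83.7 and 244 CPM at day 11 and 26.2, 0, 9.99 and 17.6 CPM at day 4, where it was close to the PBS mean of 8.94 ± 6.50 CPM. Tnc is among the 5 that separated the stages. It passed the 50 CPM rule through day 11 alone, averaging 139 CPM there and 13.5 CPM at day 4. Col1a1, the partner chain of Col1a2, overlapped, at 898 ± 478 CPM at day 11 and 411 ± 119 CPM at day 4. Tnc, Col1a1 and Vim, like Lmx1b, Nupr1, Slc12a1 and Slc34a1 below, were chosen after their values were seen.

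Of 14 basement membrane genes, 9 were higher and 5 lower at day 11, with a median of 0.22. The median was 0.10 without the pair of replicates 3, and with 1 library left out it lay between 0.11, without replicate 1 of day 4, and 0.49, without replicate 2 of day 4. Nid1, nidogen, which links laminin to type IV collagen, measured 140.2, 165, 102 and 229.9 CPM at day 11 and 88.1, 45.6, 53.4 and 13.3 CPM at day 4 without overlap. Its PBS mean was 107 ± 64.1 CPM, between the stages. Npnt, nephronectin, a podocyte-made integrin ligand, overlapped, with a log2 fold change of 0.47 ± 0.23.

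**Figure D2:**
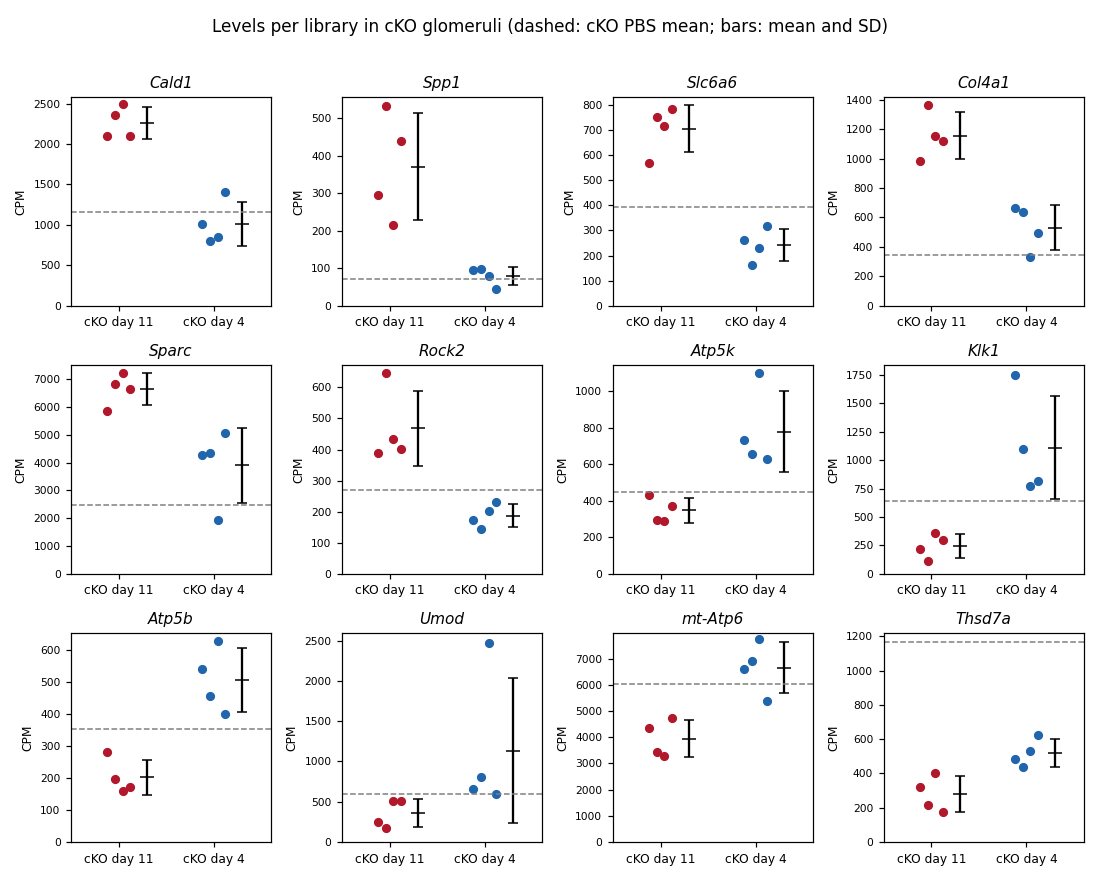
CPM per library for 12 genes, with the 4 cKO day 11 libraries in red left of the 4 cKO day 4 libraries in blue. Black bars give the mean and SD of each group and the dashed line the mean of 3 cKO PBS libraries. The groups are separate in every panel, with Cald1, Spp1, Slc6a6, Col4a1, Sparc and Rock2 higher at day 11 and Atp5k, Klk1, Atp5b, Umod, mt-Atp6 and Thsd7a lower.

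Other genes that separated the stages upwards came from several functions. Slc6a6, the taurine transporter (GRCm38 chromosome 6, 91684053 to 91759066, plus strand), measured 569.6, 750.0, 717 and 783 CPM at day 11 and 261, 164, 229 and 317 CPM at day 4, a log2 fold change of 1.54 ± 0.31 with an adjusted p of 0.0992. Its PBS mean of 392 ± 75.8 CPM lay between the stages. Ppp2r2a, a regulatory subunit of protein phosphatase 2A, measured 166, 237, 167 and 147 CPM at day 11 and 75.3, 13.6, 4.69 and 18.6 CPM at day 4. Replicate 1 of day 4 stood above the other 3 day 4 libraries, and without it the log2 fold change was 3.87 with an adjusted p of 0.00344, against 2.68 ± 0.61 and 0.221 with it. Ppp2r2a was under an adjusted p of 0.05 in 3 of 19 alternative settings. Plin2, the coat protein of lipid droplets, measured 189, 64.3, 268 and 191 CPM at day 11 and 23.4, 50.6, 11.7 and 1.96 CPM at day 4. Psmc1 (an ATPase of the proteasome cap), Socs2 (a brake on cytokine receptors) and Fcf1 (a factor of ribosomal RNA processing) had log2 fold changes of 1.20, 1.42 and 1.94, all with an adjusted p of 0.465, and for Fcf1 it was 0.0481 without replicate 1 of day 4. Fcf1 was under 0.05 in 2 of 19 alternative settings.

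Among calcium-binding S100 and annexin genes, 10 of 12 were higher and 2 lower at day 11. The median log2 fold change was 0.41, and 0.12 without the pair of replicates 3. S100a6 measured 636, 899, 378 and 647 CPM at day 11 and 168.7, 207, 178.96 and 465 CPM at day 4, where replicate 4 stood above the other 3 and overlapped day 11. S100a1 and Anxa6 separated the stages, with log2 fold changes of 1.11 and 0.81. The immediate early list had 6 higher and 1 lower of 7. Ier3, an early response gene linked to survival, measured 315, 392, 454 and 403 CPM at day 11 and 232, 234, 107 and 184 CPM at day 4 without overlap, with a PBS mean of 128 ± 3.12 CPM.

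Most genes of oxidative phosphorylation were lower at day 11. Of 68 nuclear-encoded respiratory chain genes at this level, 5 were higher and 63 lower at day 11, and the median log2 fold change was -0.71. An unadjusted p under 0.05 was reached by 0 higher and 24 lower, against 3.36% higher and 5.23% lower of all genes at this level. Without overlap were 0 higher and 14 lower, against 2.82% higher and 3.5% lower of all. Without the pair of replicates 3 the split was 4 higher and 64 lower and the median -0.61. Summed over the list (76 genes), the level was 12736, 9726, 11166 and 12637 CPM at day 11 and 17301, 20275, 21069.6 and 14159.7 CPM at day 4, so every day 11 library lay below every day 4 library. In cKO PBS libraries the sum was 11062, 13689.5 and 16099 CPM, which overlaps the day 11 values and the lowest day 4 value. Atp5b, the catalytic beta subunit of ATP synthase, measured 281, 196, 160.5 and 172 CPM at day 11 and 542, 455, 629 and 399 CPM at day 4. Its log2 fold change was -1.32 ± 0.34 (adjusted p = 0.456). Cox8a, a small subunit of cytochrome c oxidase, measured 628, 572, 507 and 741 CPM at day 11 and 897, 973, 1338 and 989.6 CPM at day 4, again without overlap.

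Atp5k, a subunit in the membrane part of ATP synthase, measured 433, 295, 289.7 and 371 CPM at day 11 and 732, 655, 1101 and 628 CPM at day 4, without overlap and with a log2 fold change of -1.17 ± 0.31. Its promoter is shown because it holds the core of the site bound by NRF-1, a factor known for regulating respiratory chain genes, with 2 overlapping matches on opposite strands in capitals.
Atp5k, chr5:108434400-108434649, minus strand: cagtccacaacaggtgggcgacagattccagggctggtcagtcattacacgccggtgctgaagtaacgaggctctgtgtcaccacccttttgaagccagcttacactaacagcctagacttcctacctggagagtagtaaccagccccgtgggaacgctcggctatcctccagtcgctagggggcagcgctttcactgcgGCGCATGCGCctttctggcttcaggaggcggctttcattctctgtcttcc
The core was searched as GCGCATGC on both strands in the 250 bases before each RefSeq start, and 2.26% of 32851 windows held it. Counted by gene, 8 of 55 respiratory chain genes with a window held it (14.5%), against 2.56% of all 27025 genes, and 1 of 44 actin list genes (2.27%). The match describes the sequence and does not show binding.

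All 12 mitochondrially encoded genes at this level were lower at day 11 (median log2 fold change -0.86, range -1.12 to -0.32). Of them, 0 higher and 6 lower separated the stages (2.82% higher and 3.5% lower over all genes at this level). These genes encode the proteins of the same complexes that the mitochondrial genome supplies. mt-Atp6, a proton channel subunit of ATP synthase, measured 4340.3, 3425, 3298 and 4724 CPM at day 11 and 6609, 6912, 7751 and 5380.5 CPM at day 4. Its log2 fold change was -0.76 ± 0.20. mt-Co3 and mt-Co1, core subunits of cytochrome c oxidase, had log2 fold changes of -0.83 ± 0.22 and -0.71 ± 0.20, and of this pair mt-Co1 overlapped. The summed level of the list (13 genes) was 43891, 36684, 39313 and 48997 CPM at day 11 and 69903, 87215, 92394 and 52173 CPM at day 4, and 55705, 63987 and 69278 CPM in cKO PBS libraries, all above the day 11 values. Of 23 citric acid cycle and fatty acid oxidation genes, 4 were higher and 19 lower, with a median of -0.46, which was -0.26 without the pair of replicates 3.

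Tubule markers were lower along with these lists. The proximal tubule list, whose cells are rich in mitochondria and surround the glomeruli, had 0 higher and 20 lower of 20 genes at day 11, with a median of -0.95. The median was -0.64 without the pair of replicates 3. Summed over the list (29 genes), the level was 6729, 5672, 7474 and 11141 CPM at day 11 and 8683, 16938, 16916 and 7304 CPM at day 4, which overlapped. Slc34a1, the proximal phosphate transporter, measured 445, 479, 382 and 603 CPM at day 11 and 658, 1439.7, 993 and 610.3 CPM at day 4. With proximal tubule content as a covariate, the median log2 fold change was -0.53 for the respiratory chain list, -0.56 for the mitochondrially encoded list and -0.20 for the citric acid cycle list. In the same fit it was still -0.26 for the proximal tubule list and -1.38 for the thick limb, distal tubule and collecting duct list. The covariate thus did not level the tubule lists themselves, and the part of tubule material in the other lists was not tested. In bulk tissue, fewer cells of a type and less RNA per cell cannot be told apart.

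Genes of the distal nephron were lower as well, 9 of 10, with a median of -1.53. Over all 26 tested genes of the list, the sum was 932, 953, 2101 and 1987 CPM at day 11 and 3036, 3539, 5512 and 2268 CPM at day 4, without overlap. Umod, the uromodulin made by the thick limb, measured 246, 173, 509 and 512 CPM at day 11 and 658, 809, 2476 and 590.4 CPM at day 4, where replicate 3 was far above the others. Calb1, a calcium buffer of the distal convoluted and connecting tubule, measured 20.3, 23.8, 11.6 and 17.6 CPM at day 11 and 82.0, 267, 86.9 and 50.6 CPM at day 4. Slc12a1, the thick limb salt transporter, overlapped between the stages at 154 ± 166 CPM at day 11 and 468 ± 272 CPM at day 4. Klk1, tissue kallikrein of the connecting tubule, measured 218, 109, 358 and 294 CPM at day 11 and 1754, 1101, 771 and 815 CPM at day 4, a log2 fold change of -2.18 ± 0.44 with an adjusted p of 0.12. Its near-identical Klk1b relatives could share reads with it, so the value is uncertain. The part of tubule material in the level of Klk1 was not tested.

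**Figure D3:**
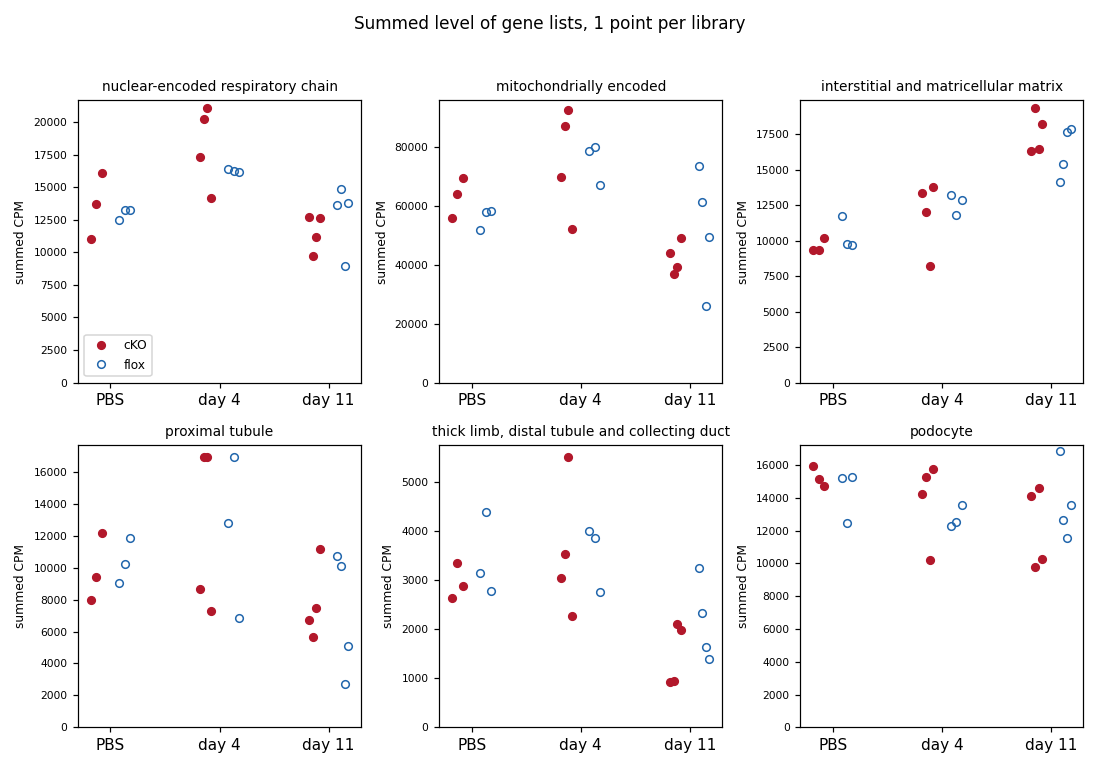
Summed CPM of all tested members of 6 gene lists in each library, with PBS, day 4 and day 11 from left to right, cKO as filled red points and flox as open blue points. The respiratory chain and mitochondrially encoded sums of cKO glomeruli average highest at day 4 and lowest at day 11, the matrix sum is highest at day 11, and the podocyte sums overlap.

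Cytosolic ribosomal protein genes leaned lower, 15 higher and 60 lower of 75, with a median of -0.31 (-0.20 without the pair of replicates 3). Of the 75, 0 higher and 5 lower did not overlap, against 2.82% higher and 3.5% lower of all genes at this level. Rps13, a small subunit protein with processed copies in the genome, measured 226, 287, 240.2 and 261 CPM at day 11 and 544, 579.8, 588 and 394 CPM at day 4. Its PBS mean of 290.3 ± 51.3 CPM lay near the day 11 level. Of 18 glutathione and Nrf2 genes 3 were higher and 15 lower, with a median of -0.53, which was -0.32 without the pair of replicates 3. Sod1, cytosolic superoxide dismutase, averaged 494 ± 123 CPM at day 11 and 852 ± 166 CPM at day 4 with overlap, and Prdx1, a peroxiredoxin, measured 209.5, 228, 132 and 136 CPM at day 11 and 328, 238, 438 and 459.6 CPM at day 4 without overlap. Tsc22d3, the glucocorticoid-induced leucine zipper, measured 30.3, 13.1, 2.46 and 17.9 CPM at day 11 and 72.6, 73.2, 204.02 and 62.7 CPM at day 4, with replicate 3 of day 4 well above the rest. Abhd14b separated the stages too, with a log2 fold change of -3.60 ± 1.005.

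Glycolysis genes were mixed in direction. Of 12 at this level 4 were higher and 8 lower, with a median of -0.42, and every member overlapped between the stages. Over all genes at this level only 2.82% were higher and 3.5% lower without overlap, so this does not set the list apart. Pgk1, which makes ATP in the later part of the pathway, averaged 82.6 ± 45.8 CPM at day 11 and 224 ± 123 CPM at day 4, a log2 fold change of -1.44 ± 0.55. Pkm, pyruvate kinase at its end, had the opposite sign, at 333 ± 109.5 CPM at day 11 and 174 ± 82.8 CPM at day 4, a log2 fold change of 0.94 ± 0.37. Hk1, hexokinase at its start, averaged 111 ± 38.0 CPM at day 11 and 216 ± 107.6 CPM at day 4.

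Podocyte genes were split, 12 higher and 18 lower of 30, with a median of -0.087, which was -0.33 without the pair of replicates 3 and 0.0064 without replicate 4 of day 11. Over all 34 tested podocyte genes, the sum was 14106, 9759, 14610.1 and 10269.6 CPM at day 11 and 14214, 15296, 10232 and 15730.1 CPM at day 4. Thsd7a, a podocyte surface protein and an autoantigen of human membranous nephropathy, measured 318, 217, 404 and 176 CPM at day 11 and 483, 434, 528 and 624 CPM at day 4, below the PBS mean of 1168 ± 109 CPM at both stages. The stages did not overlap, with a log2 fold change of -0.89 ± 0.27. Podxl, the negatively charged sialomucin podocalyxin, measured 2039.8, 841, 866 and 704 CPM at day 11 and 2550.0, 2431, 1607 and 3049 CPM at day 4, and only replicate 1 of day 11 lay inside the day 4 range. Lmx1b, a transcription factor needed for the podocyte state, measured 32.9, 0.321, 12.99 and 20.0 CPM at day 11 and 65.2, 147, 46.7 and 103 CPM at day 4, without overlap. Sema3g, a podocyte-secreted semaphorin, averaged 305 ± 67.6 CPM at day 11 and 634 ± 305 CPM at day 4, with overlap.

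Other defining podocyte genes had log2 fold changes near 0. Nphs1, which encodes the slit diaphragm protein nephrin, measured 192, 385, 523 and 553 CPM at day 11 and 397, 611, 274 and 454 CPM at day 4, with a log2 fold change of -0.072 ± 0.32 (95% interval -0.73 to 0.59). Synpo, the actin-associated synaptopodin, had a log2 fold change of -0.065 ± 0.25 (95% interval -0.57 to 0.44), and Wt1, the podocyte transcription factor, -0.038 ± 0.54 (95% interval -1.13 to 1.06). These intervals leave room for differences of either sign. Nupr1, a stress-induced chromatin protein placed in the podocyte list, measured 283, 332, 138 and 278 CPM at day 11 and 153.3, 40.6, 1.15 and 40.8 CPM at day 4, with replicate 1 of day 4 inside the day 11 range.

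Endothelial and mesangial lists had medians near 0. Of 23 endothelial genes 11 were higher and 12 lower (median -0.026), and of 16 mesangial, smooth muscle and renin cell genes 9 were higher and 7 lower (median 0.10). Without the pair of replicates 3 these medians were -0.20 for the endothelial and -0.052 for the mesangial list. Emcn and Kdr, an endothelial sialomucin and the main VEGF receptor, had log2 fold changes of -0.87 ± 0.30 and -0.45 ± 0.22, both with overlap. Igfbp5, an IGF-binding protein made by endothelium, had 1.16 ± 0.33, also with overlap. Rgs5, a pericyte regulator of G proteins, averaged 83.1 ± 35.6 CPM at day 11 and 231 ± 145 CPM at day 4, with overlap. Cspg4, the pericyte proteoglycan NG2, averaged 260.2 ± 176.6 CPM at day 11 and 45.6 ± 51.1 CPM at day 4.

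Parietal epithelial and crescent markers numbered 8 at this level, 5 higher and 3 lower with a median of 0.43. The median was 0.68 without the pair of replicates 3, 0.72 with proximal tubule content as a covariate and 0.20 without replicate 2 of day 11. Cdh6, a cadherin of parietal and developing nephron epithelium, measured 218, 208, 68.3 and 152.6 CPM at day 11 and 35.3, 17.9, 9.30 and 4.45 CPM at day 4, without overlap and with a log2 fold change of 3.27 ± 0.91. It passed the 50 CPM rule through day 11 alone, averaging 162 CPM there and 16.7 CPM at day 4. Lgals1 and Sox4 overlapped, with log2 fold changes of 1.97 and 1.13. The summed level of the list (22 genes) was 1454, 2239.7, 1649.7 and 1884 CPM at day 11 and 1054, 1025, 1081 and 1404 CPM at day 4, without overlap. Cell cycle genes reached this level in 8 cases, 2 higher and 6 lower, and Mki67, the proliferation antigen, averaged 35.4 ± 21.2 CPM at day 11 and 76.0 ± 66.1 CPM at day 4 against 8.11 ± 14.0 CPM with PBS.

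Of 8 monocyte and macrophage genes 5 were higher and 3 lower at day 11, with a median of 0.50. Lgals3, the macrophage lectin galectin-3, measured 196, 234, 105 and 171 CPM at day 11 and 49.4, 51.4, 32.2 and 8.05 CPM at day 4, without overlap and above the PBS mean of 10.3 ± 16.6 CPM. Apoe, an apolipoprotein that macrophages and mesangial cells make, measured 317, 399.5, 318 and 324 CPM at day 11 and 169.03, 299.7, 282 and 223 CPM at day 4. The summed level of the list (30 genes) was 1141, 1922, 1208 and 1365 CPM at day 11 and 1025, 1114, 646 and 1083 CPM at day 4, without overlap. No neutrophil (0 of 7 tested) or lymphocyte (0 of 12 tested) marker averaged 50 CPM, and the summed level was at most 135 CPM for neutrophil markers and 222 CPM for lymphocyte markers in these 8 libraries. The neutrophil sum of replicate 4 of day 4 was 0.

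Of 7 MHC class I genes, 1 was higher and 6 lower, with a median of -0.83. H2-Q7, a nonclassical class I molecule, measured 115, 6.29, 62.7 and 8.52 CPM at day 11 and 189, 213, 506 and 172 CPM at day 4, and H2-Q6 50.3, 11.9, 44.8 and 3.73 CPM at day 11 and 167, 88.2, 141 and 145 CPM at day 4. Both separated the stages, and as near-identical copies they may share reads. H2-D1, a classical class I heavy chain, overlapped at 392 ± 95.7 CPM at day 11 and 545 ± 231 CPM at day 4. Class II genes H2-Aa and Cd74 overlapped as well, with log2 fold changes of -0.25 ± 0.34 and 0.24 ± 0.53. Interferon response genes were balanced, 6 higher and 6 lower of 12. TGF-beta pathway genes (3 higher and 5 lower of 8) included Bmp4, a ligand of that superfamily at 119, 139, 110.4 and 232 CPM at day 11 and 42.2, 63.1, 60.6 and 97.9 CPM at day 4, and Id2, a target with a log2 fold change of -0.74 ± 0.33. Among cyclic AMP and protein kinase A genes (9 higher and 5 lower of 14), Akap13, an anchoring protein, measured 263, 220.1, 226 and 228 CPM at day 11 and 102, 50.3, 63.8 and 194 CPM at day 4, without overlap.

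**Figure D4:**
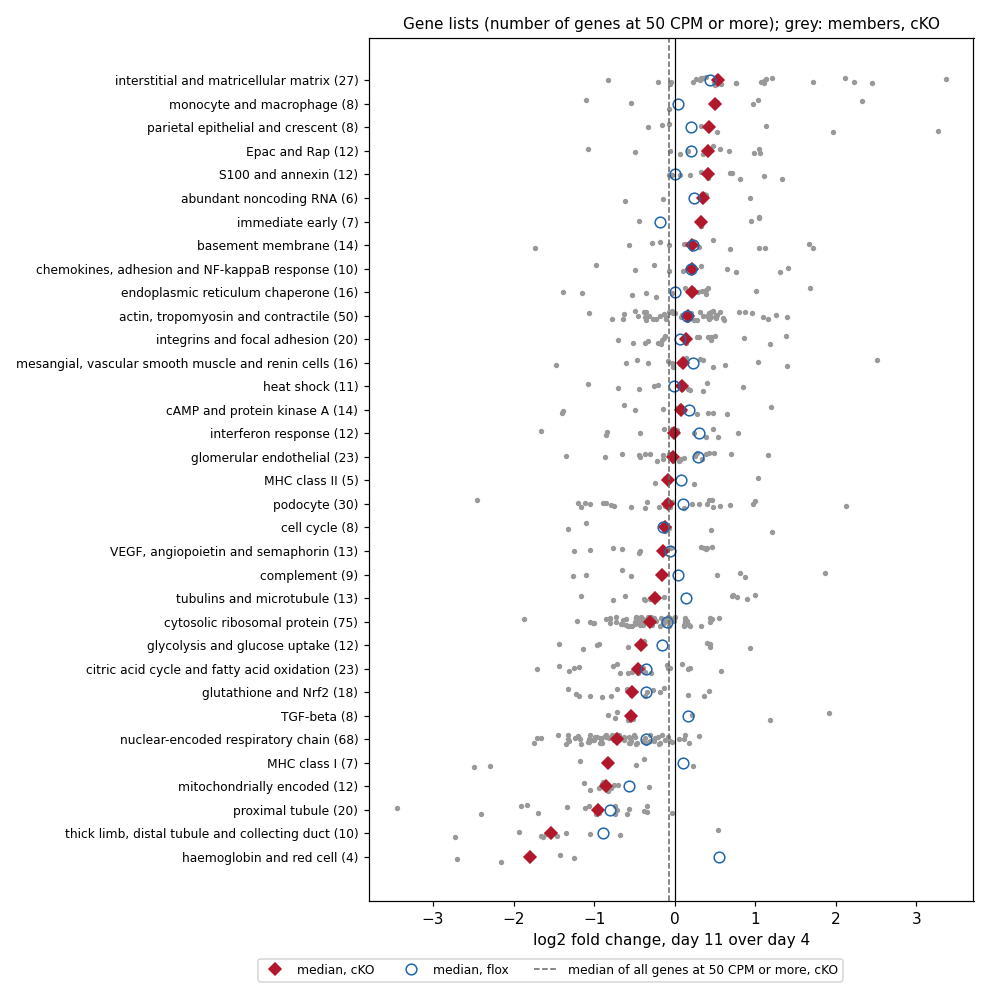
Log2 fold change of day 11 over day 4 for gene lists with 4 or more genes at 50 CPM or more. Grey points are the member genes in cKO mice, red diamonds the cKO medians, open blue circles the flox medians, and the dashed line the median of all 3481 genes in cKO mice; the matrix list lies at the top and the haemoglobin, distal tubule, proximal tubule and mitochondrial lists at the bottom.

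Endoplasmic reticulum chaperones were 10 higher and 6 lower of 16 (median 0.22), chemokine, adhesion and NF-kappaB genes 6 higher and 4 lower of 10 (0.22), and integrin and focal adhesion genes 11 higher and 9 lower of 20 (0.14). Heat shock genes were 6 higher and 5 lower of 11 (0.085), complement genes 4 higher and 5 lower of 9 (-0.16), and tubulin and microtubule genes 5 higher and 8 lower of 13 (-0.25). VEGF, angiopoietin and semaphorin genes were 5 higher and 8 lower of 13 (-0.15), MHC class II genes 2 higher and 3 lower of 5 (-0.078) and abundant noncoding RNAs 4 higher and 2 lower of 6 (0.35). The haemoglobin and red cell list lay farthest from 0, with a median of -1.79. All 4 of its genes at this level were lower at day 11, and the summed level of the list (9 genes) was 579, 1895, 2093 and 1476 CPM at day 11 against 2945, 3579, 5211 and 5964 CPM at day 4. In cKO PBS libraries the sum was 18351, 2097 and 13301 CPM, so it varied widely among mice without serum. Haemoglobin marks red cells in the dissected tissue, and the alpha and beta chains each have near-identical copies that may share reads.

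In flox mice the same step gave no edgeR call (0%). There 686 genes had an unadjusted p under 0.05 (4.94%), while DESeq2 called 567 genes (4.08%) and limma voom 21 (0.151%). The difference of the steps, cKO minus flox, likewise gave no edgeR call (0%). For it 910 genes had an unadjusted p under 0.05 (6.55%), while DESeq2 called 794 genes (5.71%) and limma voom 1 (0.0072%). Matrix genes had a median of 0.54 in cKO mice and 0.44 in flox mice, and a flox summed level of 14143 to 17899 CPM at day 11 and 11820.1 to 13197 CPM at day 4. Respiratory chain genes had a median of -0.71 in cKO mice and -0.36 in flox mice, and mitochondrially encoded genes -0.86 in cKO mice and -0.57 in flox mice. For proximal tubule genes the medians were -0.95 in cKO and -0.81 in flox mice. For MHC class I genes they were -0.83 in cKO and 0.11 in flox mice, for podocyte genes -0.087 in cKO and 0.10 in flox mice, and for haemoglobin genes -1.79 in cKO and 0.55 in flox mice. The flox haemoglobin sum was 15708, 1870, 2254 and 1534 CPM at day 11 and 4994, 2366 and 2234 CPM at day 4. Replicate 1 of flox day 11 thus stood far above the rest, and the flox haemoglobin median gives no stable direction.

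For single genes, Cald1 averaged 1861 ± 477 CPM at day 11 and 1468 ± 220.1 CPM at day 4 in flox mice, a log2 fold change of 0.34 ± 0.22, and the difference of the steps was 0.81 ± 0.30 (adjusted p = 0.635). Spp1 averaged 285 ± 85.1 CPM at day 11 and 167 ± 78.6 CPM at day 4 in flox mice, and its difference of the steps was 1.46 ± 0.58 (adjusted p = 0.658). Sparc separated the stages in flox mice too, at 5876 ± 575 CPM at day 11 and 4495 ± 416 CPM at day 4. The differences with the smallest p at this level were positive for Fcf1, Ppp2r2a, Malat1 (an abundant nuclear noncoding RNA) and Slc6a6, at 2.62 ± 0.81, 2.71 ± 0.85, 0.58 ± 0.19 and 1.32 ± 0.45. They were negative for Arap3 (a GTPase-activating protein that Rap binds), Ndufs8 (a complex I subunit), Eml2 (a microtubule-binding protein) and R3hdm4, at -2.42 ± 0.73, -3.07 ± 1.02, -1.96 ± 0.66 and -2.10 ± 0.73. None of these 8 passed, with adjusted p from 0.617 to 0.634. In cKO mice alone the log2 fold change was -0.87 for Arap3, -0.85 for Ndufs8, -1.68 for Eml2 and -0.82 for R3hdm4. Each was smaller in size than its difference of the steps, which also holds the flox step. Arap3 measured 82.2, 21.6, 159 and 71.0 CPM at day 11 and 100.4, 171, 168.1 and 169.7 CPM at day 4 in cKO mice, and averaged 103 ± 8.35 CPM at day 11 and 35.2 ± 11.8 CPM at day 4 in flox mice. Its cKO groups overlapped and its flox groups did not.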

How the data were processed

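The deposited files give 1 estimated count per gene and library, which the authors made from 3′ reads (QuantSeq FWD, per the labels' protocols). The genome build was mm10 and the tools included fastp, FastQC, Picard and DRAGEN, per the submitters' processing notes. For none of these is a version given in the sources used here. Gene names came from GENCODE M21 (35513 of 35598 IDs matched). Estimated counts, after rounding, entered edgeR 4.0.16 (R 4.3.3) with filterByExpr at a minimum count of 10, TMM factors and the robust quasi-likelihood F test, with all 21 libraries in 1 model of 6 groups. Each adjusted p is from edgeR with Benjamini-Hochberg adjustment over 13898 genes, unless another tool is named. As nothing says which animals shared a litter or a day, p-values measure the spread between these samples.

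The members and lists were chosen with earlier results of these data known. Named genes were, among genes at a mean of 50 CPM over the 8 libraries, the 12 higher and 12 lower with the smallest p and no overlap between stages (passing over predicted genes), up to 3 members per list with the smallest p, 14 genes always included, and 4 genes per direction for the difference of the steps. Genes whose values add little were left out of the text, and some genes are not reported here. Lists were described and not tested. Alternatives were DESeq2 1.42.0, limma 3.58.1 voom, other scalings, filters and covariates, a replicate block and libraries left out. The counts of list members without the pair of replicates 3 were added after seeing the data. The procedure was tested on simulated data with planted changes larger than those of Cald1 or Sparc. It does not show that differences of their size could be recovered. Promoter windows are from RefSeq (GRCm38.p6). Figures were drawn with matplotlib.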

Additional observations from a re-analysis of the deposited data

Results flagged for a closer look

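In groups of 4 libraries a library was listed here when its gap to the nearest other, divided by the range of the group, exceeded the 95% critical value of Dixon's test. Among 334 groups tested 18 did so, and chance gives about 1 in 20. In day 4 cKO libraries, replicate 3 stood above the other 3 for Umod (2476 CPM, others 590.4 to 809 CPM), H2-Q7 (506 CPM, others 172 to 213 CPM), Tsc22d3 (204.02 CPM, others 62.7 to 73.2 CPM), Kap (3423 CPM, others 97.6 to 528 CPM) and Napsa (891 CPM, others 32.9 to 168.6 CPM), and below them for Tnfrsf1a (18.4 CPM, others 104 to 112 CPM). Umod, Kap and Napsa are tubule genes. In the same group S100a6 was high in replicate 4 (465 CPM, others 168.7 to 207 CPM), Calb1 in replicate 2 (267 CPM, others 50.6 to 86.9 CPM), and Arap3 low in replicate 1 (100.4 CPM, others 168.1 to 171 CPM).

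In day 11 cKO libraries, Podxl was high in replicate 1 (2040 CPM, others 704 to 866 CPM), Hmgb2 in replicate 1 (163 CPM, others 75.5 to 89.9 CPM), Apoe in replicate 2 (399.5 CPM, others 317 to 324 CPM) and Itga1 in replicate 2 (603 CPM, others 376 to 399 CPM), while Tubb2a was low in replicate 3 (5.60 CPM, others 60.5 to 69.3 CPM). Summed levels stood apart for the parietal and crescent list in day 4 replicate 4 (1404 CPM, others 1025 to 1081 CPM), for neutrophil markers in day 11 replicate 2 (135 CPM, others 22.5 to 30.7 CPM) and day 4 replicate 1 (43.0 CPM, others 0 to 0.362 CPM), and for the Epac and Rap list in day 11 replicate 1 (1243 CPM, others 1362 to 1384 CPM).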

How the results depend on the processing

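For the cKO step, edgeR called 0 genes, DESeq2 911 and voom 10 (Sparc, Tpm1 and Actb at 50 CPM or more). It called 8 with no low-count filter (Cald1, Spp1, Slc6a6, Col4a1 and Ppp2r2a among them), 2 with only genes at 50 CPM or more and 2 with mitochondrial, haemoglobin and ribosomal RNA genes removed (Cald1 and Spp1 each time). Median-ratio size factors, a fit of the compared groups alone, covariates for detected genes or proximal tubule content, and the loss of both replicates 3 left 0. Leaving out 1 library gave 0 to 20 calls, with 20 without replicate 1 of day 4, 2 without replicate 3 of day 11 and 1 without replicate 4 of day 4. The flox step had 567 calls with DESeq2 and 21 with voom, and 0 to 0 with 1 library left out. The difference of the steps had 794 with DESeq2, 1 with voom and 0 to 11 with 1 library left out, 11 being without replicate 1 of cKO day 4. The cause of these shifts was not tested.

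Same-numbered libraries of the 2 stages did not deviate together (correlations of -0.0628, 0.0211, -0.0149 and -0.0367), so the numbers were not read as pairs, and with a replicate block 1 gene, Cald1, was called. Of 126 genes followed, 120 kept their direction in every setting. The other 6 were Acta2 (-0.033 with detected genes as covariate), Cd74 (-0.078 with voom, -0.32 to 0.57 with 1 library left out), Synpo (-0.36 to 0.092 with 1 left out), Nphs1 (0.031 with detected genes as covariate, -0.24 to 0.14 with 1 left out), Rapgef4 (-0.031 with the block, -0.22 with proximal tubule content, -0.64 without both replicates 3, -0.25 to 1.01 with 1 left out) and Wt1 (0.053 with voom, 0.0060 with only genes at 50 CPM or more, -0.39 to 0.18 with 1 left out). Of 34 list medians, 21 kept their sign throughout, including matrix (0.46 to 1.05), respiratory chain (-0.82 to -0.53), mitochondrially encoded (-0.99 to -0.56) and proximal tubule (-1.14 to -0.26). The -0.26 for proximal tubule came from the fit with that list's own level as covariate, which cannot test its stability. The other 13 lists changed sign in at least 1 setting, so their medians give no stable direction: podocyte (-0.37 to 0.0064), endothelial (-0.22 to 0.20), mesangial (-0.052 to 0.32), tubulins (-0.31 to 0.17), cell cycle (-0.43 to 0.11), heat shock (-0.19 to 0.33), complement (-0.38 to 0.19), MHC class II (-0.29 to 0.34), interferon response (-0.08 to 0.13), TGF-beta (-0.58 to 0.22), cyclic AMP (-0.018 to 0.24), integrins (-0.13 to 0.20) and VEGF (-0.44 to 0.17). The median of all genes at this level moved from -0.076 to 0.033 under voom. The common biological coefficient of variation of 1.66 limits what 4 libraries a stage can show.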
